A study of Homo sapiens with 6 samples.

Results

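The genes described here encode chaperones, folding enzymes, stress sensors and degradation factors of the endoplasmic reticulum (ER), together with a few subunits of its entry and exit machinery. They were taken by name as a fixed set of 36 genes, each of which had at least 1 array probe set annotated with that symbol alone. Of the 36, 35 passed the filter on dim genes and were tested among 14026 genes, out of 18701 genes with such probe sets. The rule names genes by function, and the list was drawn up with earlier results of these data known.

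Proteins that enter the secretory pathway fold in the ER, where HSP70- and HSP90-type chaperones, lectin chaperones that read the sugar chains, and disulfide isomerases act on them. Chains that fail to fold are recognised by mannosidases and lectins, passed back through the membrane and degraded by the proteasome, a route called ER-associated degradation (ERAD). When unfolded chains build up, the sensors IRE1, PERK and ATF6 start the unfolded protein response, which raises the transcription of many of these same genes, and secretory cells such as those of the intestinal epithelium depend on it.

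The cells were HT29-tsp53, a derivative of the human colorectal adenocarcinoma line HT-29 with a mouse p53 transgene that carries the V135A change and is active at 32 °C but not at the restrictive temperature. Total RNA was hybridised to 6 Affymetrix Gene 1.0 ST arrays in 3 groups of 2. The p53 on group had spent 16 h at 32 °C, the recovery group (p53 on then off) had 16 h at 32 °C and then 6 h of recovery, and the p53 off controls stayed at the restrictive temperature, written as 38 °C or 37 °C depending on the label. All groups carried the transgene. A source field of the recovery arrays gives 32 °C for the last 6 h, whereas their titles and remaining fields name the restrictive temperature again. The sources name neither the promoter of the transgene nor how many clones the line comes from. Since p53 was switched by temperature in all groups, p53 activity and temperature cannot be told apart in any comparison. Each group had an array in experiment 1 and in experiment 2, and differences were taken within experiments. The labels give nothing more on how separate the cultures were, so p-values measure the spread between these arrays.

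The p53 targets followed the labels: with p53 on, MDM2 and CDKN1A rose by 3.52 and 3.21 on the log2 scale over p53 off (limma, adjusted p = 2.6e-05 and 7.67e-05). After recovery they differed from p53 on by -3.44 and -3.26 (adjusted p = 5.41e-05 and 0.000136). From p53 off the recovery arrays differed by 0.09 and -0.06 in these 2 genes (adjusted p = 0.866 and 0.926). All 10 colon epithelial markers were above the dim filter, with list medians of 8.71 to 9.59 over the 6 arrays, although CDX2, a transcription factor of intestinal identity, reached only 4.62. Of the other cell types, 5 of 7 fibroblast genes (list medians 3.65 to 4.21, with DCN and LUM under the filter) and 4 of 6 leukocyte genes (list medians 5.08 to 5.46, with PTPRC and CD3E under the filter) were above it, and LYZ lay between 10.81 and 11.52. Of the markers only CEACAM5 was called. It was lower than with p53 off by 0.72 with p53 on and by 1.04 after recovery (limma, adjusted p = 0.0340 and 0.0476). It was called in neither comparison when experiment number was left out of the fit (adjusted p = 0.262 and 0.757). Its part in the results below was not tested.

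Promoter sequences were available for 32 of the 36 genes, in 38 windows of 250 bases ending just before an annotated RefSeq start (build GRCh38.p14). They are shown because many of these genes share a regulatory motif, the ER stress response element ERSE, which is bound by NF-Y at its CCAAT end and by ATF6 or XBP1 at its CCACG end. The exact letters CCAAT and CCACG with any 9 bases between them, searched on both strands, occurred in 9 of the 38 windows (23.7%), against 26 of 35116 windows of all genes (0.0740%), so members held 9 of those 26. The compact form ERSE-II, ATTGG and CCACG with any 1 base between them, occurred in 3 member windows (7.89%), against 0.0513% of all windows. The XBP1 motif core TGACGTGG occurred in 2 (5.26%, against 0.612%), in DNAJC10 and in HYOU1, where it overlaps an ERSE-II match. The cyclic AMP response element TGACGTCA was in 0 of the 38 windows and in 1.65% of all. The ERSE matches are set out below in the direction of the motif, with its fixed letters in capitals.
HSPA5: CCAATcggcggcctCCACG
XBP1: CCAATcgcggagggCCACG
PDIA6: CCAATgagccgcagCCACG
HSP90B1 (upstream match): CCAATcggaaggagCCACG
HSP90B1 (downstream match): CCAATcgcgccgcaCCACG
CALR: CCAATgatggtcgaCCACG
CANX: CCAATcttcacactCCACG
CRELD2: CCAATccgagttcgCCACG
ERO1LB: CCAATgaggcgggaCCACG
ERSE-II in HERPUD1: ATTGGgCCACG
ERSE-II in HYOU1: ATTGGaCCACG
ERSE-II in SDF2L1: ATTGGtCCACG

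The HSPA5 match starts 66 bases and the XBP1 match 52 bases before the start, the 2 HSP90B1 matches start 194 and 89 bases before it, and HYOU1 has its ERSE-II letters at 2 places, beginning 185 and 79 bases before the start. CANX shows the same match in 2 overlapping windows that belong to neighbouring starts. The promoter windows of HSPA5 (chr9:125241344-125241593, minus strand) and HERPUD1 (chr16:56931892-56932141, plus strand) are printed whole, with the motif in capitals, beside those of the 4 genes that passed the test in these data: EDEM3 (chr1:184754859-184755108, minus strand), MANF (chr3:51385041-51385290, plus strand), DNAJB9 (chr7:108569624-108569873, plus strand) and EDEM1 (chr3:5187457-5187706, plus strand). Those 4 windows hold no exact match to any of the motifs, which says only that these letters are not in these 250 bases.
HSPA5: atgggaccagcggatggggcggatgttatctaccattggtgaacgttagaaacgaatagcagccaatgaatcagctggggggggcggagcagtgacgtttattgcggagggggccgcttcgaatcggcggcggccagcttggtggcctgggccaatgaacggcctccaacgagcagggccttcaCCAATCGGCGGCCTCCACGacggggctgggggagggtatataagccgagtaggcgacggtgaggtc
HERPUD1: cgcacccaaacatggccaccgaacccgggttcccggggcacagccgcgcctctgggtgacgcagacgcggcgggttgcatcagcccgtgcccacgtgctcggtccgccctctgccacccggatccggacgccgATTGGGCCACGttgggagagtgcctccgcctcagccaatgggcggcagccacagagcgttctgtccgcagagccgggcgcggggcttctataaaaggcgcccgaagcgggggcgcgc
EDEM3: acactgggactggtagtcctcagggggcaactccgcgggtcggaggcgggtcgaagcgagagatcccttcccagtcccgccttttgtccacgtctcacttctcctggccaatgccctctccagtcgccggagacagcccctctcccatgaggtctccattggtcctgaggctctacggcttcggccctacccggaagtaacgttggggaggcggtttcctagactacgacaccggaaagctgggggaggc
MANF: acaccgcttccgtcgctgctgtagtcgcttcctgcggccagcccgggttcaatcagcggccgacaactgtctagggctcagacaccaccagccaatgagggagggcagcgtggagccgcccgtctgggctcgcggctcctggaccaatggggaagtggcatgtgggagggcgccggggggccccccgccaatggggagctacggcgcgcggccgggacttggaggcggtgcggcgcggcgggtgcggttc
DNAJB9: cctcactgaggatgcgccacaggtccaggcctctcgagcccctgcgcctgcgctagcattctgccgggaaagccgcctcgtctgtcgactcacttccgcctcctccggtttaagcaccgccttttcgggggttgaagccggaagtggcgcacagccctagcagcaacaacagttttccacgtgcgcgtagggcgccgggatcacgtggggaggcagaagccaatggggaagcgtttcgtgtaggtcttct
EDEM1: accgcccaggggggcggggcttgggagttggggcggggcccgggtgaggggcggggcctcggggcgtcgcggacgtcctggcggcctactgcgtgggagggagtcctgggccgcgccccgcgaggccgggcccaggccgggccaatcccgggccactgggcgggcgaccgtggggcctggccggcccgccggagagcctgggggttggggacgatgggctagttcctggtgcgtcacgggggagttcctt

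With p53 on for 16 h at 32 °C, the question was how the transcripts of this set compared with p53 off. EDEM3, MANF and DNAJB9 fell, with log2 differences of -1.08, -0.85 and -0.84, and 0 members rose. Most of the other ER chaperone genes lay a little below p53 off without passing the test. The 3 falls among 35 members compare with 6.28% of all genes tested that fell and 5.18% that rose, so the share of members called, 8.57%, was not above the 11.5% called in either direction over all genes. In limma with the replicate block 8 of 35 members had an unadjusted p under 0.05, against 3742 of the 14026 genes tested. Without the block 0 members were called, where 0.585% of all genes were called lower, 0.898% higher and 1.48% in either direction. The sign was more uniform than the calls: 27 of 35 members lay below 0, against 48.0% of all genes, with a median of -0.22 against 0.02. In 21 members both experiments gave a lower value (60.0%, against 31.6% of all genes), and in 5 both gave a higher value (14.3%, against 33.5%). Arrays of the groups did not overlap in 15 members that were lower with p53 on, a background of 20.6% over all genes, and in 4 that were higher, a background of 22.6%. In RNA from whole cultures, fewer cells with a transcript and less of it per cell cannot be told apart.

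**Figure D1:**
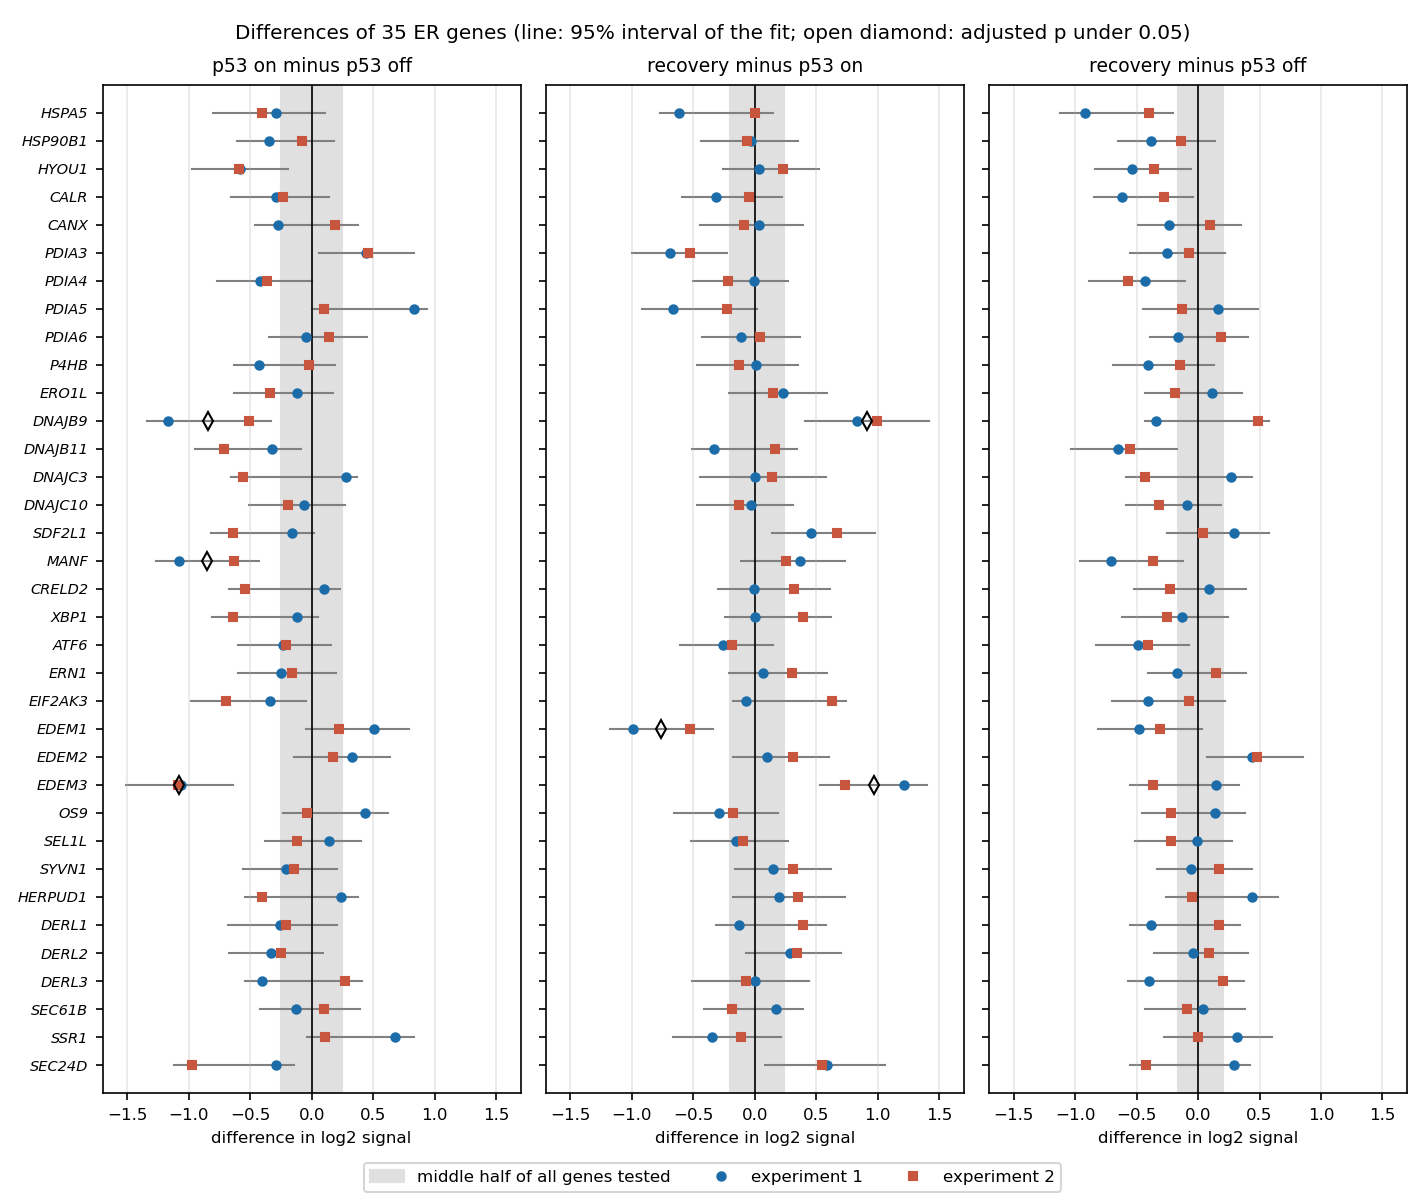
Differences in log2 signal of the 35 tested ER genes, in 3 panels for p53 on minus p53 off, recovery minus p53 on, and recovery minus p53 off. Circles are experiment 1, squares experiment 2, horizontal lines the 95% interval of the fit, open diamonds adjusted p under 0.05, and the grey band the interquartile range of all 14026 genes. EDEM3, MANF and DNAJB9 lie to the left in the left panel, and EDEM3 and DNAJB9 to the right and EDEM1 to the left in the middle panel.

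EDEM3 encodes a mannosidase that trims the sugar chains of misfolded glycoproteins and so marks them for ERAD. It stood at log2 signals of 6.29 and 6.34 with p53 on, against 7.35 and 7.43 with p53 off. The arrays of each group lay within 0.1 of each other and the groups did not overlap. The difference was -1.08 ± 0.19 (SE, n = 2 arrays per group), or 2.11-fold lower (limma, adjusted p = 0.0106, and 0.0763 without the block), with -1.06 in experiment 1 and -1.09 in experiment 2. Of its 22 probe sets, 21 were lower in both experiments. The call was lost without p53 off array 2 (-0.94, adjusted p = 0.0761).

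MANF encodes a small secreted and ER-resident protein that is induced by ER stress and protects cells from it. It stood at 7.76 and 7.55 with p53 on, against 8.84 and 8.18 with p53 off. Both p53 off arrays were higher, array 1 by the wider margin. The difference was -0.85 ± 0.18 (adjusted p = 0.0217, and 0.200 without the block), with -1.08 and -0.63 in the experiments, and 6 of 8 probe sets were lower in both. The call was lost without p53 on array 1 (-0.71, adjusted p = 0.0927) or p53 off array 1 (-0.65, adjusted p = 0.112), and with no dim filter (adjusted p = 0.0533).

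DNAJB9, or ERdj4, is a J-domain cochaperone of HSPA5 that restrains the sensor IRE1 and delivers misfolded proteins to ERAD. It stood at 3.87 and 3.62 with p53 on, against 5.04 and 4.12 with p53 off, and the p53 on values are close to the dim filter of 3.62. The p53 off arrays differed from each other by more than the group means did. The difference was -0.84 ± 0.22 (adjusted p = 0.0449, and 0.266 without the block), with -1.17 and -0.51 in the experiments, and all 5 probe sets were lower in both. It was not called without p53 off array 1 (-0.47, adjusted p = 0.235), p53 on array 1 (-0.71, adjusted p = 0.146) or p53 on array 2 (-0.96, adjusted p = 0.0774), nor with no dim filter (adjusted p = 0.0949).

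**Figure D2:**
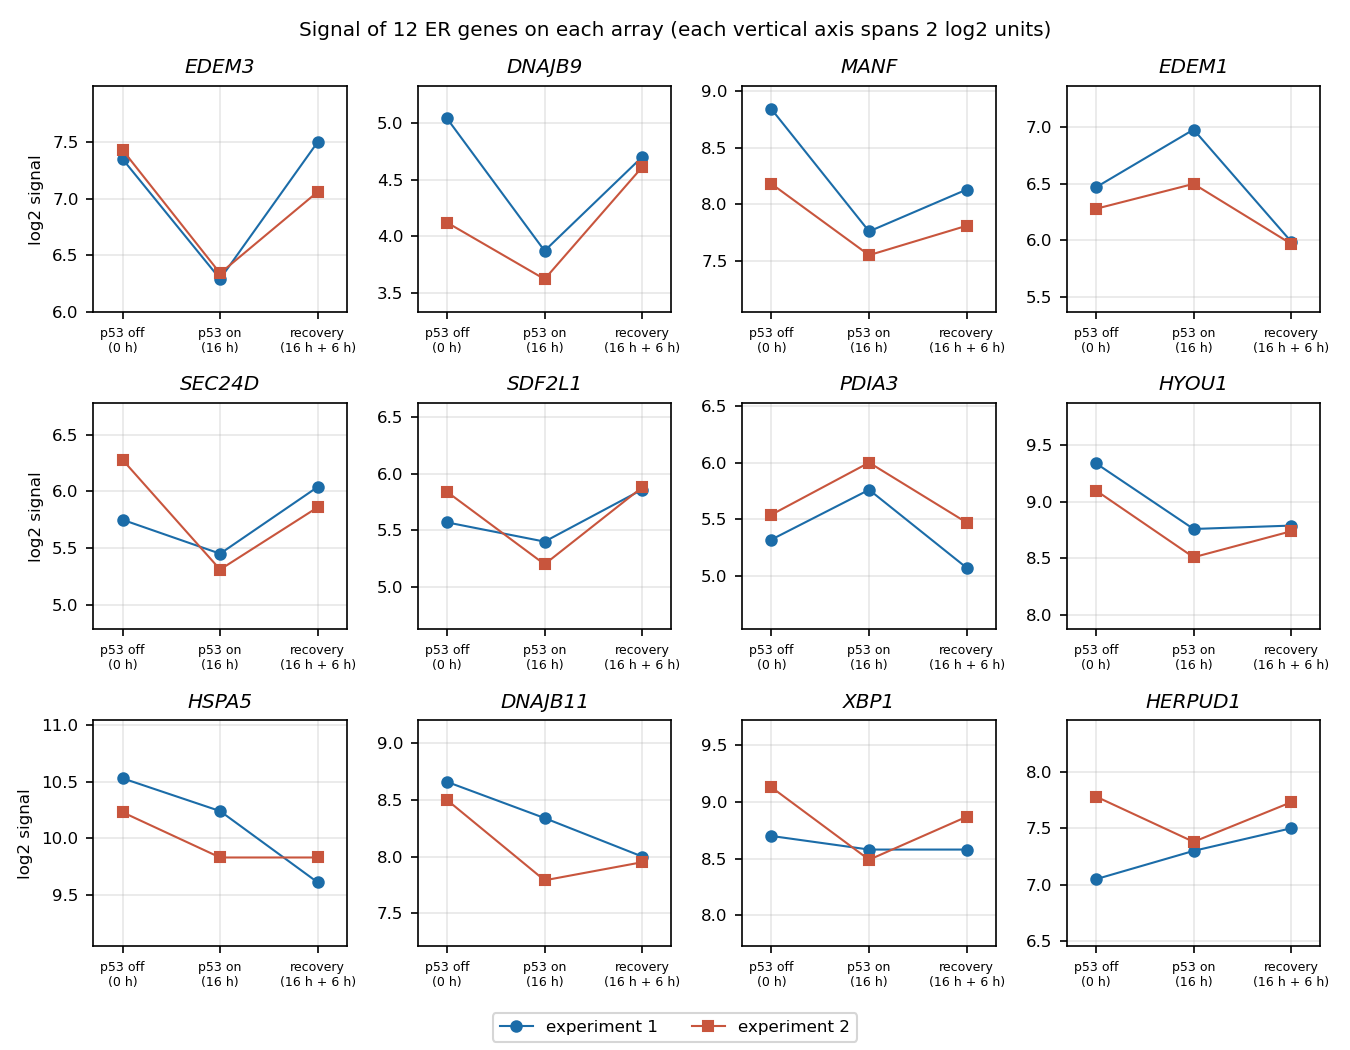
Log2 signal of 12 of the ER genes on each array, in the order p53 off (0 h), p53 on (16 h) and recovery (16 h and 6 h), with circles joined for experiment 1 and squares for experiment 2. EDEM3, DNAJB9 and MANF are lowest with p53 on in both experiments, EDEM1 is highest with p53 on, and HSPA5 and DNAJB11 end below their p53 off values in both experiments.

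The lumenal HSP70 and HSP90 chaperones were each lower in both experiments, as were 31.6% of all genes, but none passed the test. HSPA5 (BiP), the main HSP70 of the ER and a usual indicator of the unfolded protein response, stood at 10.24 and 9.83 with p53 on, against 10.53 and 10.23 with p53 off. The groups overlapped by a narrow margin, and the difference was -0.35 ± 0.20 (95% interval -0.80 to 0.11, adjusted p = 0.316). HYOU1, a large HSP70 relative that exchanges nucleotide on HSPA5, stood at 8.76 and 8.51 with p53 on, against 9.34 and 9.10 with p53 off. Its groups did not overlap, the difference was -0.58 ± 0.17 (adjusted p = 0.0618), and 30 of 33 probe sets were lower in both experiments. HYOU1 was called with the stricter dim filter (adjusted p = 0.0257), with the mean of probe sets (adjusted p = 0.0219) and with a mean-variance trend (adjusted p = 0.0111). HSP90B1 (GRP94), the ER's HSP90, differed by -0.22 (adjusted p = 0.476).

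Among the other J-domain cochaperones of HSPA5, DNAJB11 stood at 8.34 and 7.79 with p53 on, against 8.66 and 8.50 with p53 off, a difference of -0.52 ± 0.19 (adjusted p = 0.118). The groups did not overlap, and it was called with the mean of probe sets (-0.56, adjusted p = 0.0224) and with a mean-variance trend (adjusted p = 0.0423). DNAJC10, which also reduces disulfides, differed by -0.12 and was lower in both experiments. DNAJC3, an inhibitor of PERK-type kinases as well as a cochaperone, went opposite ways, by 0.28 in experiment 1 and -0.56 in experiment 2. Of the small stress-induced proteins beside MANF, SDF2L1, a partner of J-domain proteins, stood at 5.40 and 5.20 with p53 on, against 5.57 and 5.84 with p53 off (-0.40 ± 0.18, adjusted p = 0.209), or called at -0.46 with the mean of probe sets (adjusted p = 0.0365). CRELD2, a secreted disulfide isomerase-like protein, differed by 0.10 and -0.54 in the experiments.

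The lectin chaperones and disulfide enzymes showed no common direction. CALR, the soluble lectin chaperone calreticulin, differed by -0.26 (adjusted p = 0.391), and CANX, its membrane-bound relative calnexin, by -0.04 (adjusted p = 0.910, 95% interval -0.46 to 0.38). Among the disulfide isomerases PDIA3, which works with CALR and CANX on glycoproteins, stood at 5.76 and 6.0 with p53 on, against 5.32 and 5.54 with p53 off. Its groups did not overlap and the difference was 0.45 ± 0.17 (adjusted p = 0.130). PDIA3 rests on 2 probe sets, because 14 others carry a second symbol and were left out. Of the 2 probe sets, 1 was higher in both experiments. With 2 probe sets the mean equals the median. The adjusted p of 0.0433 with the mean of probe sets therefore comes from the fit over all genes, with the values of PDIA3 unchanged. PDIA5 stood at 6.51 and 5.89 with p53 on, against 5.68 and 5.78 with p53 off, so that its difference of 0.47 ± 0.21 (adjusted p = 0.191) came mostly from experiment 1. PDIA4 differed by -0.39, P4HB, the founding disulfide isomerase, by -0.22, and PDIA6 by 0.05, with adjusted p between 0.189 and 0.898. ERO1L (now ERO1A), the oxidase that recharges the isomerases, differed by -0.23 (adjusted p = 0.452).

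ERO1LB (now ERO1B), the second such oxidase and a gene with an ERSE match, was the member under the dim filter. It stood at 3.43 and 2.69 with p53 on, against 2.23 and 2.22 with p53 off. The p53 on arrays were the higher ones in both experiments, at signals under the filter or near it. In a fit with no filter the difference was 0.83 ± 0.23 (adjusted p = 0.0864).

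The sensors and their transcription factor lay lower with p53 on, but 0 of 4 were called. The 4 genes were lower in both experiments, as were 31.6% of all genes. Their groups did not overlap, and 20.6% of all genes were likewise lower without overlap. XBP1, the transcription factor that IRE1 activates by splicing, stood at 8.58 and 8.49 with p53 on, against 8.70 and 9.13 with p53 off (-0.38 ± 0.19, adjusted p = 0.238). With the mean of probe sets the XBP1 difference was -0.14. These values do not show XBP1 splicing. EIF2AK3, which encodes the kinase PERK, stood at 5.21 and 4.98 with p53 on, against 5.55 and 5.68 with p53 off (-0.52 ± 0.20, adjusted p = 0.143). ATF6 differed by -0.22 and ERN1, which encodes IRE1, by -0.20 (adjusted p = 0.448 and 0.515). The direction of ERN1 was not stable: with the mean of its probe sets the difference was 0.18, and 1 of 24 probe sets was lower in both experiments against 7 that were higher.

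In the degradation branch EDEM3 was the only member called, and its relatives did not share its direction. EDEM1, a related mannosidase, stood at 6.98 and 6.50 with p53 on, against 6.47 and 6.28 with p53 off. The groups did not overlap, and the difference was 0.37 ± 0.18 (adjusted p = 0.244). EDEM2, which makes the initial cut in that trimming, differed by 0.25 (adjusted p = 0.394), and OS9, a lectin that hands trimmed glycoproteins to the ubiquitin ligase, by 0.43 and -0.04 in the experiments. HERPUD1, a ligase-associated protein and sensitive indicator of the unfolded protein response, stood at 7.30 and 7.38 with p53 on, against 7.05 and 7.78 with p53 off. Its p53 off arrays enclosed the p53 on arrays, and the difference was -0.08 ± 0.20 (adjusted p = 0.844, 95% interval -0.54 to 0.38). SEL1L and SYVN1, the adaptor and the ubiquitin ligase (HRD1) of the main ERAD complex, differed by 0.01 and -0.18. The channel-like derlins DERL1, DERL2 and DERL3 differed by -0.23, -0.29 and -0.06, with adjusted p between 0.313 and 0.883. With the mean of probe sets DERL1 differed by -0.01 and DERL3 by 0.23.

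At the entry and exit of the ER, SEC61B encodes a part of the protein-conducting channel and SSR1 a protein associated with it. SEC24D encodes a cargo-binding coat subunit of export vesicles. SEC24D stood at 5.45 and 5.31 with p53 on, against 5.75 and 6.28 with p53 off, and the groups did not overlap. The difference was -0.63 ± 0.22 (adjusted p = 0.0974), with -0.29 and -0.97 in the experiments. It was called with the stricter dim filter (adjusted p = 0.0427), with the mean of probe sets (-0.47, adjusted p = 0.0381) and without p53 off array 1 (-0.98, adjusted p = 0.0360). SSR1 stood at 9.87 and 10 with p53 on, against 9.19 and 9.89 with p53 off (0.39 ± 0.19, adjusted p = 0.233), and SEC61B differed by -0.01. SEC61B varied more between experiments than between groups, at 8.55 and 7.82 with p53 on, against 8.68 and 7.72 with p53 off.

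**Figure D3:**
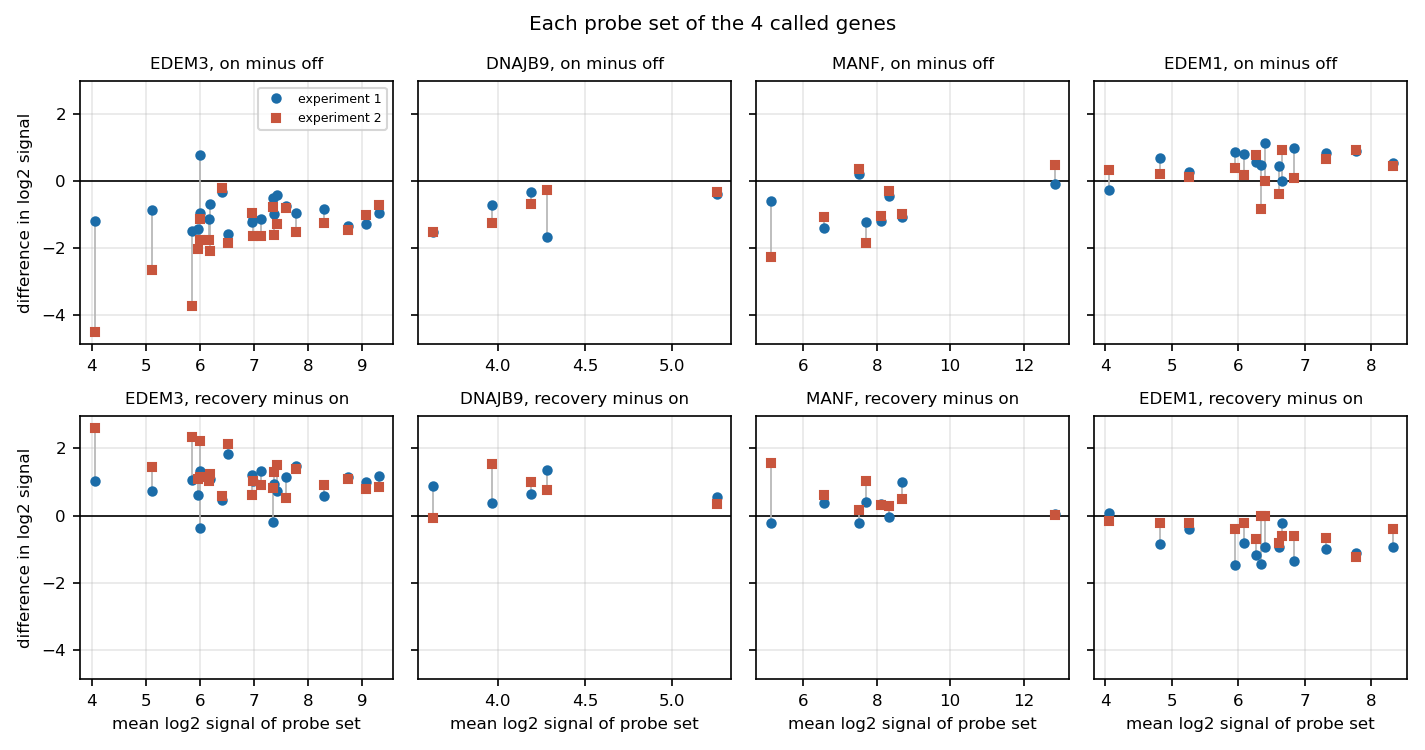
Difference in log2 signal of every probe set of the 4 called genes against its mean log2 signal, with p53 on minus p53 off in the upper row and recovery minus p53 on in the lower row. Circles are experiment 1 and squares experiment 2. Nearly all probe sets of EDEM3 lie below 0 in the upper row and above it in the lower row, while 9 of 14 EDEM1 probe sets lie above 0 in both experiments in the upper row and 13 of 14 below it in the lower row.

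The recovery arrays were next set against p53 on, to see which transcripts differed 6 h later. EDEM3 and DNAJB9 rose, by 0.97 and 0.91 on the log2 scale, and EDEM1 fell by 0.76. Over all genes 3.84% rose and 3.39% fell (7.24% in either direction), so the 2 rises and 1 fall among 35 members were near the background. In limma without the block 0 members were called, where 0.143% of all genes rose and 0.285% fell (0.428% together). With the block 6 of 35 members had an unadjusted p under 0.05, against 3114 of the 14026 genes tested. Members had a median of -0.01 against 0.02 over all genes, with 12 higher in both experiments (34.3%, against 34.8% of all genes) and 11 lower in both (31.4% of members and of all genes). Arrays did not overlap in 9 members that were higher, where 21.3% of all genes did so, and in 4 that were lower, where 18.3% did. This comparison shares the p53 on arrays with the preceding one.

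EDEM3 stood at 7.50 and 7.06 after recovery, against 6.29 and 6.34 with p53 on. Both recovery arrays were higher, array 1 by more. The difference was 0.97 ± 0.19, or 1.95-fold (adjusted p = 0.0228, and 0.137 without the block), with 1.21 and 0.73 in the experiments and 20 of 22 probe sets higher in both. The call was lost without recovery array 1 (0.72, adjusted p = 0.237) or p53 on array 1 (0.85, adjusted p = 0.0803), and with no dim filter (adjusted p = 0.0600).

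DNAJB9 stood at 4.70 and 4.61 after recovery, against 3.87 and 3.62 with p53 on. The recovery arrays lay close together and above both p53 on arrays. The difference was 0.91 ± 0.22, or 1.88-fold (adjusted p = 0.0436, and 0.290 without the block), with 0.83 and 0.99 in the experiments and 4 of 5 probe sets higher in both. It was not called without recovery array 2 (0.66, adjusted p = 0.326), p53 on array 1 (0.79, adjusted p = 0.141) or p53 on array 2 (1.03, adjusted p = 0.0764), nor with no dim filter (adjusted p = 0.10).

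EDEM1 stood at 5.99 and 5.97 after recovery, against 6.98 and 6.50 with p53 on. Its recovery arrays were nearly equal and both were lower. The difference was -0.76 ± 0.18, or 1.69-fold lower (adjusted p = 0.0428, and 0.239 without the block), with -0.99 and -0.53 in the experiments and 13 of 14 probe sets lower in both. The call was lost without recovery array 1 (-0.60, adjusted p = 0.357), recovery array 2 (-0.92, adjusted p = 0.104), p53 on array 1 (-0.57, adjusted p = 0.187) or p53 on array 2 (-0.95, adjusted p = 0.0533), and with no dim filter (adjusted p = 0.0952).

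Among the members that did not pass, SEC24D stood at 6.04 and 5.86 after recovery, against 5.45 and 5.31 with p53 on (0.57 ± 0.22, adjusted p = 0.161). SDF2L1 stood at 5.86 and 5.88 after recovery, against 5.40 and 5.20 with p53 on (0.56 ± 0.18, adjusted p = 0.110), and was called with the stricter dim filter (adjusted p = 0.0487) and with the mean of probe sets (0.47, adjusted p = 0.0447). Both genes separated the groups without overlap.

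PDIA3 stood at 5.07 and 5.47 after recovery, against 5.76 and 6.0 with p53 on (-0.61 ± 0.17, adjusted p = 0.0684). It was called with the stricter dim filter (adjusted p = 0.0264) and with the mean of probe sets (adjusted p = 0.0151). Both settings left the values of PDIA3 unchanged, and 1 of its 2 probe sets was lower in both experiments. PDIA5 stood at 5.84 and 5.66 after recovery, against 6.51 and 5.89 with p53 on (-0.45 ± 0.21, adjusted p = 0.248). Both isomerases were lower in both experiments.

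None of the remaining indicators passed the test. HERPUD1 stood at 7.50 and 7.73 after recovery, against 7.30 and 7.38 with p53 on (0.27 ± 0.20, adjusted p = 0.483). XBP1 stood at 8.58 and 8.87 after recovery, against 8.58 and 8.49 with p53 on, so the difference of 0.19 ± 0.19 (adjusted p = 0.616) lay in experiment 2. MANF stood at 8.13 and 7.81 after recovery, against 7.76 and 7.55 with p53 on, a difference of 0.31 ± 0.18 that did not pass (adjusted p = 0.370). DERL2 and SYVN1 differed by 0.32 and 0.23, and HYOU1, PDIA4, HSP90B1 and CANX by 0.13, -0.11, -0.04 and -0.03. The other 18 tested members lay between -0.24 (OS9) and 0.28 (EIF2AK3), with adjusted p between 0.481 and 0.985. ERO1LB, under the dim filter, stood at 2.42 and 2.32 after recovery, against 3.43 and 2.69 with p53 on, and differed by -0.68 ± 0.23 in the fit with no filter (adjusted p = 0.177).

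HSPA5 stood at 9.61 and 9.83 after recovery, against 10.24 and 9.83 with p53 on, so its difference of -0.31 ± 0.20 (adjusted p = 0.421) came from experiment 1. With the mean of its 9 probe sets in place of their median it was 0.01, and 1 probe set was lower and 2 were higher in both experiments.

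The third comparison asks what remained of any change after recovery, relative to cells in which p53 was never switched on. In limma 0 of 35 members were called with the replicate block and 0 without it. With the block 8 members had an unadjusted p under 0.05, against 1822 of the 14026 genes tested. Over all genes 0.207% were called higher and 0.392% lower (0.599% together) with the block, and 0.0285% higher and 0.0285% in either direction without it. The median of the members was -0.10 against 0.03, with 15 lower in both experiments (42.9%, against 27.6% of all genes) and 2 higher in both (5.71%, against 33.4%). Arrays did not overlap in 8 members that were lower, a background of 14.5%, and in 2 that were higher, a background of 20.4%.

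With the median of probe sets HSPA5 had the lowest difference of the members. It stood at 9.61 and 9.83 after recovery, against 10.53 and 10.23 with p53 off. The groups did not overlap. The difference was -0.66 ± 0.20 (95% interval -1.12 to -0.20, adjusted p = 0.223), or -0.39 with the mean of probe sets, and 7 of 9 probe sets were lower in both experiments. With that mean HSPA5 was not the lowest, as HYOU1 differed by -0.46 and CALR and ATF6 by -0.44 each. DNAJB11 stood at 8.0 and 7.95 after recovery, against 8.66 and 8.50 with p53 off (-0.60 ± 0.19, adjusted p = 0.231, or -0.38 with the mean of probe sets).

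MANF stood at 8.13 and 7.81 after recovery, against 8.84 and 8.18 with p53 off (-0.54 ± 0.18, 95% interval -0.96 to -0.12, adjusted p = 0.265), lower in both experiments and with no overlap. PDIA4, HYOU1, CALR and ATF6 differed by -0.50, -0.45, -0.45 and -0.45, each lower in both experiments, with adjusted p between 0.264 and 0.336. None of these chaperone genes passed, so the data do not show that they stayed below p53 off.

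Of the other genes called in the earlier comparisons, EDEM3 differed by -0.11 ± 0.19 (95% interval -0.55 to 0.33) and DNAJB9 by 0.07 ± 0.22 (95% interval -0.43 to 0.58), with opposite signs in the 2 experiments for both genes. With the mean of probe sets DNAJB9 differed by -0.13. EDEM1 stood at 5.99 and 5.97 after recovery, against 6.47 and 6.28 with p53 off (-0.39 ± 0.18, adjusted p = 0.414), and its groups did not overlap. EDEM2 was the highest member, at 6.33 and 6.40 after recovery, against 5.90 and 5.92 with p53 off. Its 2 groups were well apart relative to their spread, at 0.46 ± 0.17, but did not pass (adjusted p = 0.309). SDF2L1 stood at 5.86 and 5.88 after recovery, against 5.57 and 5.84 with p53 off (0.16 ± 0.18, adjusted p = 0.756).

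The indicator genes XBP1 and HERPUD1 did not pass either. XBP1 stood at 8.58 and 8.87 after recovery, against 8.70 and 9.13 with p53 off, a difference of -0.19 ± 0.19 (adjusted p = 0.724). With the mean of probe sets it was 0.02, and 1 of 7 probe sets was lower in both experiments against 3 that were higher. HERPUD1 stood at 7.50 and 7.73 after recovery, against 7.05 and 7.78 with p53 off, a difference of 0.20 ± 0.20 (adjusted p = 0.735) with opposite signs in the experiments. The p53 off arrays enclosed the HERPUD1 recovery arrays. The other 21 tested members lay between -0.28 (P4HB) and 0.16 (SSR1), with adjusted p between 0.567 and 0.986.

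Of the 10 tested members with an exact ERSE or ERSE-II match, 0 were called in limma in any comparison, with or without the block, where 11.5%, 7.24% and 0.599% of all genes were called with it. At an unadjusted p under 0.05 with the block there were 1, 1 and 3, against 3742, 3114 and 1822 of the 14026 genes tested. HYOU1 and SDF2L1, both with ERSE-II letters, were called under the alternatives given above. Of the 10, 9 lay below 0 with p53 on relative to p53 off (median -0.24, where 48.0% of all genes lay below 0), 5 after recovery relative to p53 on (median 0.05, against 48.0%) and 7 after recovery relative to p53 off (median -0.13, against 45.9%). Of 21 members with a promoter window but no match, 15 lay below 0 in the first of these (median -0.20), 11 in the second (median -0.01) and 15 in the third (median -0.08). These are descriptions of 2 small sets and were not tested.

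Other genes of the ER and its stress response were read from lists chosen by function. Over all genes tested, 6.28% fell and 5.18% rose with p53 on, and 3742 of 14026 had an unadjusted p under 0.05 in limma. Without the block 1.48% of all genes were called in either direction. With p53 on relative to p53 off, 1 of 29 other folding genes fell (DNAJC1, an HSPA5 cochaperone, by 0.77 ± 0.17, adjusted p = 0.0225), and 0 of 22 translocon and signal peptidase genes and 0 of 19 genes of COPII export vesicles and retrieval receptors were called in limma, with 2 and 3 at an unadjusted p under 0.05 and 0 in each list without the block. Of 29 N-glycosylation genes 2 fell, ALG6, a glucosyltransferase that completes the sugar precursor (by 1.42 ± 0.22, adjusted p = 0.00646), and DPAGT1, the enzyme that starts it (by 0.80 ± 0.18, adjusted p = 0.0269).

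Of 26 other ERAD genes, NPLOC4, a cofactor of the p97 segregase, rose by 0.71 ± 0.17 (adjusted p = 0.0289) and ERLIN1, a membrane scaffold of ERAD, fell by 1.13 ± 0.18 (adjusted p = 0.00737). That list had a median of 0.21, against -0.22 for the members described here and 0.02 for all genes. Other ER lists leaned lower as the members did, by less. Their medians were -0.14 for translocon and signal peptidase, -0.12 for COPII and retrieval receptors and -0.11 for N-glycosylation. The other folding genes and the other stress transducers had medians of -0.04 each. Of 19 other stress transducers and partners BAX rose by 1.35 ± 0.17 (adjusted p = 0.00255) and CREB3L4 fell by 0.73 ± 0.19 (adjusted p = 0.0412). Without the block NPLOC4, ERLIN1, CREB3L4, DNAJC1 and DPAGT1 were not called (adjusted p = 0.143, 0.0569, 0.166, 0.275 and 0.127), while ALG6 and BAX were (0.0497 and 0.0494). BAX, a killer protein of the BCL2 family that also binds IRE1, is a known p53 target.

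The PERK arm and the cytosolic chaperones set the members in context. Of 15 PERK arm targets, SESN2 and NUPR1 rose by 1.53 ± 0.19 and 1.02 ± 0.17 (adjusted p = 0.00235 and 0.00848), CEBPG fell by 0.67 ± 0.17 (adjusted p = 0.0358), and the list median was 0.34. SESN2 is also a known p53 target. Of 19 cytosolic chaperones 8 fell and 1 rose (42.1% and 5.26%, against 6.28% and 5.18% of all genes), with a median of -0.47. The falls were led by CHORDC1, HSPH1 and FKBP4, with differences of -1.56, -1.34 and -1.26 (adjusted p between 0.00148 and 0.00389). Genes of this kind answer to heat shock factor and to temperature, and the part of either in these differences was not tested. Without the block 0 PERK arm targets and 1 cytosolic chaperone were called, where 1.48% of all genes were called.

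After recovery relative to p53 on, 7 of 19 cytosolic chaperones rose and 1 fell (36.8% and 5.26%, against 3.84% and 3.39% of all genes). Their median was 0.44, against -0.01 for the ER members. ALG6 and ERLIN1 rose by 1.43 ± 0.22 and 1.03 ± 0.18 (adjusted p = 0.00944 and 0.0152), and NPLOC4 fell by 0.68 ± 0.17 (adjusted p = 0.0451). The COPII genes SEC24C, a relative of SEC24D, and PREB, which loads the coat's GTPase, rose by 0.79 ± 0.18 and 0.78 ± 0.17 (adjusted p = 0.0361 and 0.0330). Without the block 0 genes of these lists were called in this comparison, the cytosolic chaperones included, where 0.428% of all genes were called. In that fit ALG6, ERLIN1, NPLOC4, SEC24C and PREB had adjusted p of 0.081, 0.104, 0.208, 0.196 and 0.277.

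NFYA, a subunit of the factor that binds the CCAAT end of the ERSE, stood at 7.01 and 7.01 after recovery, against 6.15 and 6.16 with p53 on, and rose by 0.85 ± 0.17 (adjusted p = 0.0254, and 0.144 without the block). BAX fell by 1.16 ± 0.17 (adjusted p = 0.00731, and 0.106 without the block). Of the PERK arm targets 3 fell, SESN2, NUPR1 and the stress transcription factor ATF3, with differences of -1.74, -1.0 and -0.98 (adjusted p between 0.00224 and 0.0451, and between 0.0698 and 0.196 without the block), and the median was -0.18. In the lists of other folding genes and of translocon genes 0 were called in limma, and 0 without the block. Of all genes 7.24% were called with it and 0.428% without it. At an unadjusted p under 0.05 they held 3 and 2 genes, against 3114 of the 14026 genes tested. After recovery relative to p53 off, 0 genes of these 8 lists were called in limma with or without the block. Few genes of any kind were called there, 0.599% of all genes with the block and 0.0285% without it. Between 0 and 4 genes per list had an unadjusted p under 0.05 with the block, against 1822 of the 14026 genes tested. The difference between the ER members and any other list was not tested.

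**Figure D4:**
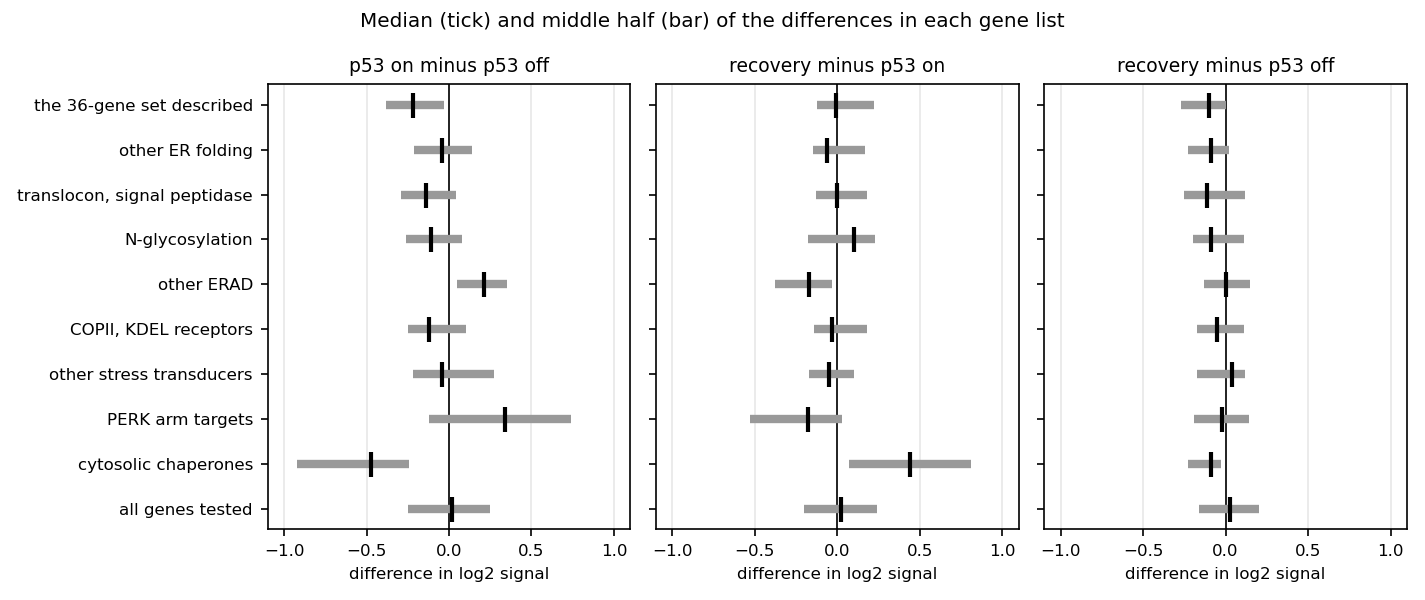
Median (tick) and interquartile range (bar) of the differences in log2 signal in each gene list, for p53 on minus p53 off, recovery minus p53 on, and recovery minus p53 off. The ER members have medians of -0.22, -0.01 and -0.10, the cytosolic chaperones -0.47, 0.44 and -0.09, and all genes tested 0.02, 0.02 and 0.03.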

How the data were processed

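Processed log2 values of 6 arrays, as deposited by the authors, were used. No label or header names the program or normalization behind them. Array medians were 5.24 to 5.31. Per the labels' protocols, 100 ng of RNA was labelled per array. The number of arrays limits the precision. Of 257430 probe sets, 224320 carried 1 symbol, 10159 several and 22951 none. Single-symbol probe sets were summarised per gene by their median. The 25% of genes with the lowest mean (log2 under 3.62) were left out, which left 14026. Differences were fitted with limma 3.58.1 in R 4.3.3 over the 3 groups with experiment number as a replicate block, and p-values were Benjamini-Hochberg adjusted over all genes and called under 0.05. The labels give the experiment numbers, and deviations of same-numbered arrays correlated at 0.496, 0.551 and 0.630. The fit was tested on simulated data for p53 on against p53 off alone. How often it finds changes as small as those of the members is not given here. Members and lists were chosen with earlier results of these data known. Array values are given for called members, the 3 largest rises and falls per comparison with 1 sign in both experiments, and HSPA5, XBP1, DNAJB9 and HERPUD1. Some members outside that rule, such as HYOU1, EIF2AK3, SSR1 and SEC61B, are also shown with array values. From each other list up to 4 called genes with the largest differences were named. Motifs were searched in the 250 bases before RefSeq starts (GRCh38.p14). Alternatives were no block, no or a stricter dim filter (50% of genes), the mean of probe sets, quantile normalization, a mean-variance trend, only the groups compared, and leaving out each array. The p53 gene itself is not reported here.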

Additional observations from a re-analysis of the deposited data

How the results depend on the processing

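No called difference of a member changed sign under any alternative run. Without the replicate block, p53 on against p53 off gave 0 members lower, with 126 genes higher and 82 lower overall. Recovery against p53 on then gave 0 members in either direction, with 20 and 40 genes, and recovery against p53 off gave 4 and 0 genes. With no dim filter 1 member was lower with p53 on (427 genes higher, 466 lower), 0 members were called in recovery against p53 on (205 and 206 genes), and 10 and 1 genes in recovery against p53 off, where the members' median was -0.09. The mean of probe sets gave 7 members lower and 1 higher with p53 on (1182 genes higher, 1474 lower, members' median -0.15). It gave 3 members higher and 2 lower in recovery against p53 on (1116 and 849 genes), and 121 and 206 genes in recovery against p53 off (median -0.15). The mean-variance trend gave 5 members lower with p53 on (942 genes higher, 1177 lower). In recovery against p53 on it gave 2 members higher and 1 lower (834 and 719 genes), and in recovery against p53 off 79 and 162 genes. The stricter filter left out DNAJB9, with a mean of 4.33 over all arrays, so its differences were not tested there. Of the members that remained, this filter gave 4 lower with p53 on (829 genes higher, 1097 lower), HYOU1 and SEC24D among them. It gave 2 members higher and 2 lower in recovery against p53 on (764 and 624 genes), and 85 and 169 genes in recovery against p53 off (median -0.11). Quantile normalization gave medians of -0.21 with p53 on and -0.11 in recovery against p53 off, and, with the values as deposited, a fit of recovery against p53 off on their 4 arrays alone gave 94 and 152 genes. The cause was not tested. Leaving out each array gave 348 to 733 genes higher and 265 to 896 lower with p53 on, with 1 to 3 members lower and a median of -0.26 to -0.17. It gave 194 to 675 and 207 to 584 genes in recovery against p53 on, with 0 to 2 members higher, 0 to 1 lower and a median of -0.01 to 0.14, and 13 to 94 and 4 to 152 genes in recovery against p53 off, with a median of -0.23 to -0.10. With 2 arrays per group, small differences cannot be resolved, and signals near the filter, as in DNAJB9, are less certain.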
